A study of Homo sapiens with 6 samples.

Results

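The data compared here are the RNA-seq profiles of NB4 cells carrying the ARID1A guide sg5 (replicates E1 and E2, called replicate 1 and replicate 2) and of NB4 cells carrying a control guide against LacZ (replicates E1 and E2). They make up 4 of the 6 samples of the study, chosen by their titles. The other 2 samples carry a second ARID1A guide, sg1, and are used for the estimate of the spread and for values set beside those of sg5. NB4 is an established acute promyelocytic leukemia line, whose cells are arrested near the promyelocyte stage and carry the PML-RARA fusion. According to the methods of the study, the cells expressed Cas9 with mCherry and a doxycycline-inducible single guide RNA with GFP, and double-positive cells were sorted. All samples, the LacZ controls included, received doxycycline at 1 µg/ml for 7 days and, per the methods, were then cultured further in medium without it. The genotype label was WT for LacZ and ARID1A-deficient for sg5. Each guide was thus tested in 1 cell line as a sorted population rather than a clone, and an edited population can hold cells with different alleles. Nothing states that the replicates were separate cultures, so p-values measure the spread between these samples, which may be technical.

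ARID1A is a DNA-binding subunit of the SWI/SNF (BAF) complex, which uses ATP to move nucleosomes and open enhancers and promoters. Loss of this subunit changes the accessibility of regulatory DNA, and SWI/SNF activity is needed along several blood lineages. Promyelocytes are granulocyte precursors that make the primary granule proteins, and granulocyte, eosinophil, basophil and mast cell programs diverge around this stage.

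The sg5 target site is shown because its place in the gene sets which ARID1A transcripts would carry an edited sequence. A match to the GENCODE 29 transcripts on GRCh38 placed it in the coding part of exon 1 of ARID1A, at chr1:26696849-26696868 on the plus strand, starting at coding base 446 in codon 149. The capitals mark the PAM that follows the site.
ARID1A sg5 site: gcttcgggcaaccctacggcCGG
The site was present in 2 of the 8 annotated ARID1A transcripts with values here, ARID1A-201 and ARID1A-205. No other annotated transcript held this site with up to 3 substitutions and an NGG PAM, and DNA outside transcripts was not searched.

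ARID1A itself (ENSG00000117713, chromosome 1, 26693236 to 26782110) was examined first. Its level was 155 and 190.7 CPM (counts scaled by library size) in LacZ and 123.7 and 145.1 CPM in sg5. Both sg5 samples lay below both LacZ samples, by a small margin in replicate 2. The log2 fold change was -0.36 (SE 0.14), with an adjusted p of 0.661 by the edgeR quasi-likelihood test, so the mRNA level did not pass the threshold and does not by itself check the label. Mutations in a coding exon need not change the mRNA level, and these libraries hold no protein data. The study itself reports an immunoblot of ARID1A knockout in NB4 cells with ARID1A guides, after 7 days of doxycycline. The 2 transcripts that hold the sg5 site took 76.8% and 80.2% of ARID1A counts in LacZ, and 70.7% and 64.6% in sg5. ARID1A-202, which lacks the site, took 6.91% and 4.65% in LacZ and 10.1% and 18.8% in sg5. The sg1 samples lay on the same side of LacZ, with 73.4% and 72.9% for transcripts that hold the sg5 site and 13.6% and 9.85% for ARID1A-202, so this shift was not particular to sg5. Reads shared between transcripts are split by a model, so these shares are uncertain. Of 30 SWI/SNF subunit genes tested, 0 passed the threshold, with 2 at an unadjusted p under 0.05 (ARID1A and SMARCD3, both lower). Over all genes tested, 4.52% were lower at that unadjusted p. ARID1B, the paralog of ARID1A, was named after its values were seen; it lay at 68.0 and 72.7 CPM in LacZ and at 76.0 and 73.1 CPM in sg5.

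Total estimated counts lay between 46131178 and 54843745 in the 6 samples, and the low-count filter of the test used a minimum count of 10. Of the markers of promyelocytes, MPO, AZU1, PRTN3, CTSG, CD33 and CEBPE were present with at least 2535 counts in each LacZ and sg5 sample, whereas ELANE had at most 9. GP9, PF4 and HBB had 0 counts in each of the 6 samples, and CD3E and MS4A1 had at most 3. Of the 6 eosinophil, basophil and mast cell markers, CLC and CPA3 had at most 6 counts, whereas EPX, PRG2, HDC and TPSAB1 were measured. These were lower in both sg5 samples, as described below, though TPSAB1 did not pass the edgeR test. In bulk RNA, fewer cells of a type and less RNA per cell cannot be told apart. The sg5 replicates were less alike than the LacZ replicates. Among 13133 genes averaging 50 counts or more, 1422 differed by at least 1.5-fold between the sg5 replicates and 451 between the LacZ replicates.

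To find genes that changed with sg5, 18514 genes were tested. In sg5, 18 genes passed a false discovery rate (FDR) of 0.1 (0.0972% of genes tested), of which 6 were higher (0.0324%) and 12 lower (0.0648%). In each of the 18, neither sg5 sample overlapped the LacZ pair, as held for 20.2% of all genes in the higher and 21.9% in the lower direction. The genes that fell included the granule and enzyme genes of eosinophils, basophils and mast cells (PRG2, EPX, HDC), matrix genes (HSPG2, COL27A1), the platelet integrin gene ITGA2B and the NF-kappaB subunit gene RELB. The genes that rose included RIPOR2, CUX2, SLPI and CD300LB. With DESeq2, 201 genes passed (83 higher, 118 lower; 1.35% of 14924 with an adjusted p), and they included all 18. Without LacZ replicate 2, 0 genes passed in the edgeR test, with 612 at an unadjusted p under 0.05. Without LacZ replicate 1, 6 passed, and without sg5 replicate 2, 21 passed, among them 12 of the 18. With transcripts that had no gene match kept as features, 1 gene passed.

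**Figure D1:**
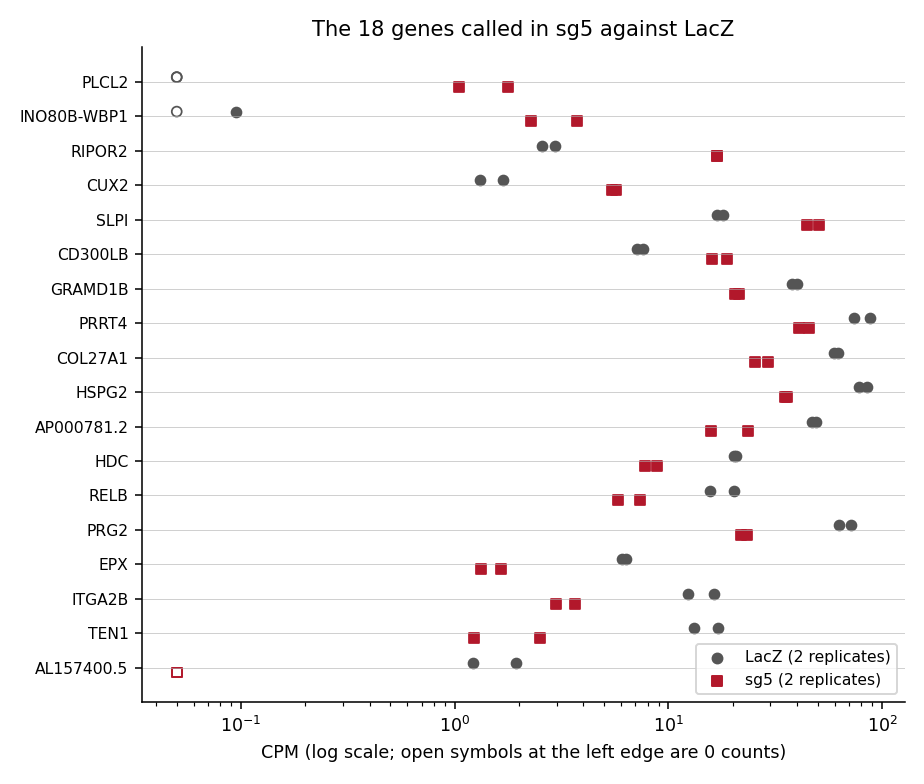
CPM (log scale) of the 18 genes called in sg5 against LacZ, with a circle for each LacZ sample and a square for each sg5 sample; open symbols at the left edge stand for 0 counts. The groups do not overlap in any of the 18 genes, and RIPOR2 has nearly equal values in the sg5 samples (16.9 and 16.8 CPM).

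RIPOR2 (chromosome 6, 24804281 to 25042170) encodes an inhibitor of the small GTPase RhoA that is involved in cell polarity and migration. It was measured at 2.94 and 2.56 CPM in LacZ and at 16.9 and 16.8 CPM in sg5. The sg5 samples were far above LacZ and close to each other. RIPOR2 rose 6.11-fold (log2 fold change 2.61, SE 0.18, adjusted p 0.00352), the smallest adjusted p of the comparison. It was also the 1 gene that passed with the replicate number as a block. CUX2, which encodes a homeodomain transcription factor, was measured at 1.69 and 1.31 CPM in LacZ and at 5.71 and 5.46 CPM in sg5. The 2 groups were well apart, and CUX2 rose by a log2 fold change of 1.89 (SE 0.23, adjusted p 0.0372).

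SLPI encodes a secreted inhibitor of neutrophil serine proteases such as elastase and cathepsin G. SLPI lay at 17.9 and 16.9 CPM in LacZ and at 44.5 and 50.5 CPM in sg5, a rise of 1.45 on the log2 scale (SE 0.20, adjusted p 0.0773). CD300LB, an activating receptor of the CD300 family on myeloid cells, was measured at 7.12 and 7.62 CPM in LacZ and at 16.1 and 18.9 CPM in sg5. It rose by 1.24 on the log2 scale (SE 0.17, adjusted p 0.0706). For both genes the lower sg5 sample lay more than 2-fold above the higher LacZ sample.

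PLCL2, which encodes a phospholipase C-like protein without lipase activity, had 0 and 0 counts in LacZ and 83 and 53 counts in sg5. Against a floor of 3 counts in each LacZ library this is at least 24.2-fold higher (adjusted p 0.0364). INO80B-WBP1 is a read-through of the neighboring genes INO80B and WBP1. It had 5 and 0 counts in LacZ and 107 and 188 in sg5 (adjusted p 0.0372). INO80B, WBP1 and their read-through summed to 40.9 and 40.3 CPM in LacZ and to 44.1 and 33.9 CPM in sg5, so that the groups overlapped once the locus was summed. The separate value of INO80B-WBP1 is thus uncertain.

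The eosinophil, basophil and mast cell genes formed the group with most called members. Of 22 genes listed, 16 were tested, and of these 3 were called lower and 0 higher, against 0.0648% and 0.0324% of all genes. In 12 of the 16 (75%, against 21.9% of all genes) both sg5 samples lay below both LacZ samples. In 2 of the 16 they lay above (12.5%, against 20.2% of all genes). The median log2 fold change was -0.73, against -0.01 over all genes tested. The study's own gene list, chosen on these samples, names PRG2, EPX and HDC, so the direction of the list is not independent evidence.

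PRG2 (chromosome 11, 57386794 to 57390657) encodes major basic protein, the core of the eosinophil granule. It was measured at 62.9 and 71.8 CPM in LacZ and at 23.2 and 21.9 CPM in sg5. Both sg5 samples stood at about the same low level, and PRG2 fell by 1.58 on the log2 scale (SE 0.15, adjusted p 0.0249). AP000781.2, a read-through annotated over PRG2 and the next gene SLC43A3, fell as well (log2 fold change -1.28, adjusted p 0.0773), and reads of PRG2 and AP000781.2 may have been divided between them. Summed, these 2 genes gave 112 and 118.6 CPM in LacZ and 39.1 and 45.4 CPM in sg5. SLC43A3 itself lay at 381.6 and 389.1 CPM in LacZ and at 353.6 and 389.5 CPM in sg5.

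EPX encodes eosinophil peroxidase. EPX was measured at 6.34 and 6.07 CPM in LacZ and at 1.64 and 1.33 CPM in sg5, which is 4.18-fold lower (log2 fold change -2.06, SE 0.25, adjusted p 0.0372). HDC, histidine decarboxylase, makes histamine in basophils and mast cells. HDC was measured at 20.7 and 20.3 CPM in LacZ and at 7.80 and 8.80 CPM in sg5, and fell by 1.30 on the log2 scale (SE 0.15, adjusted p 0.0372). TPSAB1, a mast cell tryptase, was at 4.78 and 4.14 CPM in LacZ and at 2.17 and 2.12 CPM in sg5, and did not pass (log2 fold change -1.06, adjusted p 0.434; 0.0611 with DESeq2). RNASE2, the eosinophil-derived neurotoxin, did not share this direction. Its level was 223.4 and 191.2 CPM in LacZ and 277.4 and 380.5 CPM in sg5 (log2 fold change 0.67, adjusted p 0.550).

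The matrix and proteoglycan list held 2 called genes among 17 tested, both lower, whereas 0.0648% of all genes were called lower. HSPG2 encodes perlecan, a basement membrane heparan sulfate proteoglycan. It was measured at 85.1 and 77.9 CPM in LacZ and at 36.0 and 35.3 CPM in sg5, and fell by 1.19 on the log2 scale (SE 0.12, adjusted p 0.0249). COL27A1, a fibrillar collagen gene, was measured at 59.2 and 61.8 CPM in LacZ and at 29.3 and 25.5 CPM in sg5, and fell by 1.14 (SE 0.14, adjusted p 0.0372). In both genes every sg5 value was under every LacZ value by a wide margin. Neither SPARC (log2 fold change -0.82, adjusted p 0.286) nor AGRN, which encodes agrin (-0.66, adjusted p 0.365), passed with edgeR, and with DESeq2 both did (0.00742 and 0.0294). The median log2 fold change of the list was -0.28. Of the 17 genes, 7 were lower without overlap (41.2%, against 21.9% of all genes) and 2 higher (11.8%, against 20.2%).

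ITGA2B (chromosome 17, 44372180 to 44389505) encodes the alpha chain of the platelet fibrinogen receptor. Its level was 16.2 and 12.3 CPM in LacZ and 3.67 and 2.99 CPM in sg5. ITGA2B fell by 2.10 on the log2 scale (SE 0.22, adjusted p 0.0258), and the sg5 values did not approach those of LacZ. It was the 1 called gene of 11 megakaryocyte and platelet genes tested, whereas 0.0648% of all genes were called lower. The median of the 11 was -0.08. Of the 11, 4 were lower without overlap (36.4%, against 21.9% of all genes) and 0 were higher (against 20.2%). GP1BB, a chain of the platelet receptor for von Willebrand factor, was at 282 and 381 counts in LacZ and at 28 and 0 counts in sg5, but did not pass (adjusted p 0.591). In sg1 it had 441 and 132 counts.

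RELB encodes a subunit of the non-canonical NF-kappaB pathway. It was measured at 20.2 and 15.6 CPM in LacZ and at 7.35 and 5.84 CPM in sg5, and fell by 1.44 on the log2 scale (SE 0.20, adjusted p 0.0773). The NF-kappaB targets had 1 called gene, RELB, among 21 tested, whereas 0.0648% of all genes were called lower. Of the 21, 10 were lower without overlap (47.6%, against 21.9% of all genes) and 1 was higher (4.76%, against 20.2%). Members with lower values that did not pass were TNFAIP3, an inhibitor of the pathway (57.2 and 32.9 CPM in LacZ, 25.3 and 28.1 in sg5; adjusted p 0.535), and NFKBIE, an I-kappaB gene (adjusted p 0.485). The LacZ samples themselves differed in this list, with a median of -0.36 on the log2 scale for replicate 2 against replicate 1, and the list median of sg5 was -0.25. Without LacZ replicate 1 it was -0.11, and without LacZ replicate 2 it was -0.36.

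TEN1 (chromosome 17, 75979220 to 76000586) encodes a subunit of the CST complex, which acts at telomeres. It was measured at 13.1 and 17.0 CPM in LacZ and at 2.52 and 1.23 CPM in sg5. Both sg5 samples were at a small part of the control level, and TEN1 fell by 3.01 on the log2 scale (SE 0.31, adjusted p 0.0258). It was also the 1 called gene whose difference between sg5 and sg1 passed the test, with 18.1 and 19.6 CPM in sg1. The read-through TEN1-CDK3, which overlaps it, lay at 12.3 and 16.4 CPM in LacZ and at 13.8 and 12.3 CPM in sg5. Within 250000 bases of TEN1, the median log2 fold change of 18 other genes averaging 50 counts or more was -0.13. ZACN was the 1 neighbor past 1.5-fold, from a value of 0.405 CPM in sg5 replicate 1 against 6.86 in replicate 2.

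The other called genes were GRAMD1B, which encodes a cholesterol carrier at contacts of the endoplasmic reticulum and plasma membrane, PRRT4 and the processed pseudogene AL157400.5. GRAMD1B was measured at 39.8 and 37.9 CPM in LacZ and at 20.4 and 21.5 CPM in sg5 (log2 fold change -0.89, adjusted p 0.0706). PRRT4 lay at 73.7 and 88.1 CPM in LacZ and at 40.8 and 45.5 CPM in sg5 (log2 fold change -0.91, adjusted p 0.0838). AL157400.5 had 64 and 97 counts in LacZ and 0 and 0 in sg5, which is at least 25.5-fold lower against a floor of 3 counts in each sg5 library. Counts of a pseudogene can be shared with its parent gene and are uncertain.

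The called genes were set beside the sg1 samples, with LacZ as the shared control. RIPOR2 lay at 21.2 and 17.8 CPM in sg1, PRG2 at 26.1 and 20.5, HDC at 8.74 and 8.89, ITGA2B at 3.42 and 3.22 and SLPI at 59.9 and 37.8. RELB lay at 15.5 and 12.9 CPM in sg1, nearer to LacZ than to sg5, but its direct difference between sg5 and sg1 did not pass (log2 difference -1.11, adjusted p 1.00). PLCL2 had 5 and 3 counts in sg1 against 83 and 53 in sg5, and this difference did not pass either (adjusted p 0.556). AL157400.5 had 123 and 54 counts in sg1 against 0 and 0 in sg5, which did not pass (adjusted p 0.138). A difference that did not pass is not shown to be absent.

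To separate changes shared by the sg5 replicates from those of one sample, each replicate was set against the LacZ mean in log2 CPM. A gene was said to have moved where the sample was at least 1.5-fold from that mean and outside both LacZ samples. Moving in both replicates meant the same direction in each, and moving in 1 replicate only meant that the other stayed within 1.2-fold. These classes describe single samples, are defined by the values themselves and carry no test. Of 13133 genes averaging 50 counts or more, 102 were higher in both replicates (0.777%) and 181 lower in both (1.38%). In replicate 2 only, 204 were higher (1.55%) and 595 lower (4.53%). In replicate 1 only, 58 were higher (0.442%) and 68 lower (0.518%). With upper quartile factors the split in replicate 2 only was 131 higher and 715 lower. Thus the class of replicate 2 only was the largest of the 3, and most of its genes were lower. Of the 18 called genes, 17 were in the class of both replicates, and the remaining one had a mean below the minimum.

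**Figure D2:**
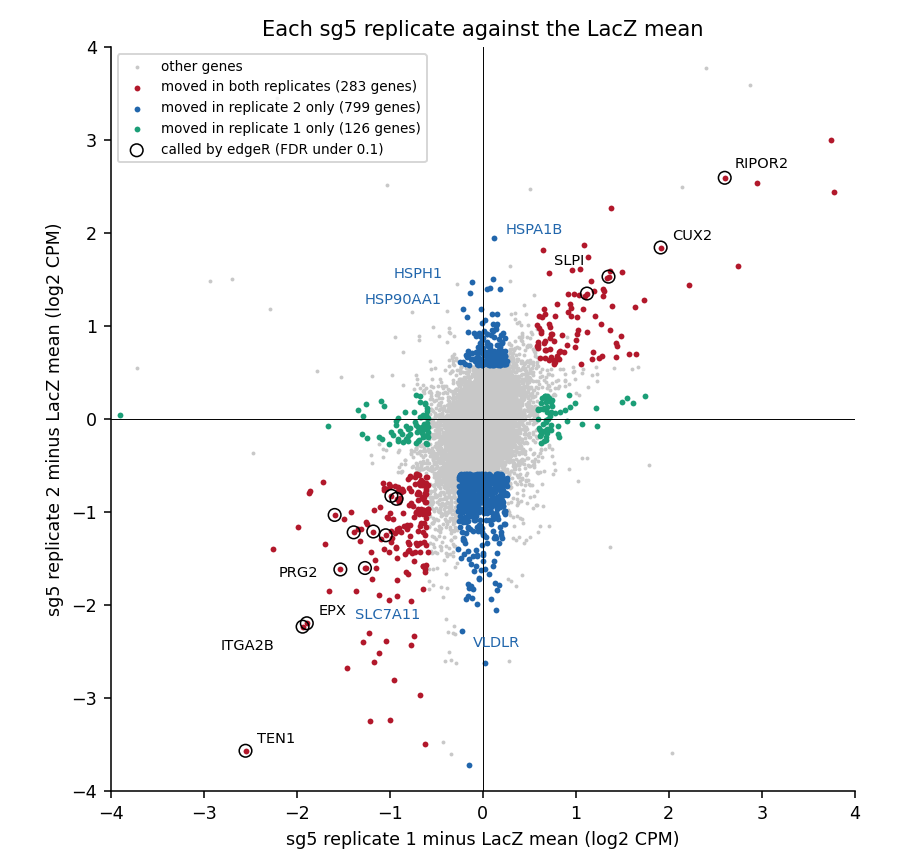
Difference from the LacZ mean in log2 CPM for sg5 replicate 1 (horizontal) and replicate 2 (vertical), with 1 point for each of 13111 genes averaging 50 counts or more and 22 more outside the axes. The called genes within the axes (rings) lie near the diagonal, whereas the 799 genes that moved in replicate 2 only form a vertical band, longer below 0.

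Genes that moved in both replicates but were not called give further groups. Calprotectin genes were among them. S100A9 was measured at 8.54 and 8.39 CPM in LacZ and at 20.9 and 22.2 CPM in sg5 (log2 fold change 1.35, SE 0.32, adjusted p 0.417). Its partner S100A8 was at 2.03 and 0.952 CPM in LacZ and at 4.01 and 4.27 CPM in sg5 (1.47, SE 0.45, adjusted p 0.535). Each had both sg5 samples at about the same level above LacZ. CCR2, the monocyte chemokine receptor, lay at 3.44 and 2.94 CPM in LacZ and at 8.33 and 15.5 CPM in sg5 (adjusted p 0.349), and LYZ, lysozyme, at 130.6 and 127.9 in LacZ and at 249.1 and 280.2 in sg5 (adjusted p 0.525). In contrast, MMP9, the gelatinase of neutrophil granules, was lower, at 453.7 and 360.2 CPM in LacZ and at 194.2 and 153.4 CPM in sg5 (log2 fold change -1.23, adjusted p 0.223). With DESeq2 these 5 genes passed, with adjusted p-values of 0.00312 for S100A9, 0.0863 for S100A8, 0.00028 for CCR2, 0.0227 for LYZ and 9.41e-05 for MMP9. The secondary granule and neutrophil maturation list had a median of -0.25, with 4 of 14 genes higher (28.6%, against 20.2% of all genes) and 6 lower without overlap (42.9%, against 21.9%). In this list 1 gene was called higher and 0 lower, against 0.0324% and 0.0648% of all genes. In both replicates 3 moved up and 1 moved down. The LacZ samples themselves differed, with a list median of -0.26 for replicate 2 against replicate 1. Without LacZ replicate 1 the list median of sg5 was -0.07. LTF, CAMP and LCN2, defining genes of secondary granules, were not tested and had at most 4 counts in each LacZ and sg5 sample.

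MHC class II genes had the highest list median in replicate 1. HLA-DRA, the alpha chain of HLA-DR, had 16 and 3 counts in LacZ and 115 and 73 in sg5 (adjusted p 0.286), low in all samples and apart between the groups. CIITA, the master activator of class II transcription, was at 3.15 and 2.98 CPM in LacZ and at 5.24 and 4.73 CPM in sg5 (log2 fold change 0.70, adjusted p 0.533). CD74, the invariant chain, was at 19.2 and 13.7 CPM in LacZ and at 49.3 and 23.6 CPM in sg5 (adjusted p 0.649). Of the 10 class II genes tested, 5 were higher without overlap (50%, against 20.2% of all genes), 0 were lower and 0 passed with edgeR. With DESeq2, HLA-DRA passed (adjusted p 0.000404). The median difference from LacZ was 0.72 in replicate 1 and 0.43 in replicate 2.

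Among genes lower in both replicates, LIN28B, which encodes an inhibitor of let-7 microRNA maturation, had 128 and 110 counts in LacZ and 33 and 31 in sg5 (log2 fold change -1.81, SE 0.29, adjusted p 0.163). INPP4B, a phosphoinositide phosphatase gene, lay at 8.71 and 8.90 CPM in LacZ and at 4.11 and 3.58 in sg5 (-1.20, SE 0.20, adjusted p 0.170). STRA6, the receptor for retinol binding protein, lay at 8.22 and 6.39 CPM in LacZ and at 2.94 and 1.34 in sg5 (-1.77, adjusted p 0.286). All 3 were clearly lower in each sg5 sample, yet none passed with edgeR. With DESeq2, LIN28B, INPP4B and STRA6 passed, with adjusted p-values of 0.00218, 2.16e-05 and 0.000721. Among genes higher in both, HUNK, a protein kinase gene, lay at 3.38 and 2.74 CPM in LacZ and at 7.52 and 8.09 in sg5 (log2 fold change 1.35, SE 0.22, adjusted p 0.163; 1.41e-05 with DESeq2). The near-identical defensin genes are uncertain. DEFA1B had 0 counts in LacZ and 54 and 159 in sg5, but DEFA1, DEFA1B and DEFA3 summed to 9.78 and 8.47 CPM in LacZ and to 8.63 and 8.23 in sg5.

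The immediate early genes, which respond within minutes to growth factors, included 2 that moved in both replicates. EGR1 lay at 11.7 and 21.5 CPM in LacZ and at 6.14 and 4.37 CPM in sg5 (log2 fold change -1.66, adjusted p 0.365). IER2 lay at 126.6 and 168.9 CPM in LacZ and at 93.5 and 80.7 CPM in sg5 (-0.76, adjusted p 0.333). Of 16 tested, 11 were lower without overlap (68.8%, against 21.9% of all genes) and 0 were higher (against 20.2% of all genes). With edgeR 0 passed, and the list median was -0.48. With DESeq2, EGR1 (adjusted p 0.000826) and IER2 (0.0116) passed. FOS, in contrast, lay at 9.59 and 10.7 CPM in LacZ and at 9.02 and 10.8 CPM in sg5; it was named after its values were seen. Of 30 hematopoietic transcription factor genes, 14 were lower (46.7%, against 21.9% of all genes) and 7 higher without overlap (23.3%, near the 20.2% of all genes), and 0 passed. GFI1, a repressor needed for granulocyte differentiation, lay at 184.7 and 219.1 CPM in LacZ and at 151.5 and 129.3 in sg5 (log2 fold change -0.52, adjusted p 0.446; 0.0695 with DESeq2). GATA1, a factor of the erythroid, megakaryocyte, eosinophil and mast cell lineages, lay at 1.92 and 1.59 CPM in LacZ and at 0.448 and 0.989 in sg5 (-1.28, adjusted p 0.536). GATA2 lay at 26.2 and 28.6 CPM in LacZ and at 17.4 and 22.5 in sg5 (-0.46, adjusted p 0.634).

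The genes that moved in replicate 2 only included heat shock chaperones among the higher ones. HSPH1, an HSP110 chaperone, was measured at 185.1 and 182.4 CPM in LacZ, at 168.9 in sg5 replicate 1 and at 513.4 in replicate 2. HSP90AA1, the inducible HSP90, was measured at 1057 and 1181 CPM in LacZ, at 1014 in replicate 1 and at 2869 in replicate 2. DNAJB1, an HSP40 co-chaperone, was measured at 44.0 and 34.6 CPM in LacZ, at 44.5 in replicate 1 and at 103.3 in replicate 2. In all 3, sg5 replicate 1 was close to LacZ and replicate 2 was the highest of the 4 samples. In sg1 replicate 1 they were also above LacZ, with 350 CPM for HSPH1, 2199 for HSP90AA1 and 72.0 for DNAJB1. Among the LacZ and sg5 samples, replicate 2 was also the highest for HSPE1, the mitochondrial co-chaperone HSP10 (147 and 162 CPM in LacZ, 171 and 337 in sg5), and HSPA1B, an inducible HSP70 that is nearly identical to HSPA1A (40.4 and 28.4 in LacZ, 36.9 and 131 in sg5). MANF, an endoplasmic reticulum stress protein, was at 49.7 and 46.9 CPM in LacZ and at 42.8 and 104 in sg5. Of 23 unfolded protein response and heat shock genes tested, 7 moved up and 1 moved down in replicate 2 only. Among genes averaging 50 counts or more, 1.55% moved up and 4.53% moved down in this way. Of the 23, 19 lay above both LacZ samples in replicate 2 and 11 in replicate 1, against 37.4% and 36.7% of all genes tested. The list median was 0.02 in replicate 1 and 0.54 in replicate 2. In the edgeR test of sg5 against LacZ 0 genes passed. At an unadjusted p under 0.05 there was 1, which was higher (DNAJB9, adjusted p 0.664), against 2.95% of all genes in that direction.

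The integrated stress response genes, which ATF4 turns on when amino acids are scarce or translation is slowed, moved the other way in replicate 2. VLDLR, a lipoprotein receptor gene, was measured at 99.0 and 123.6 CPM in LacZ, at 94.5 in sg5 replicate 1 and at 22.8 in replicate 2. SLC7A11, the cystine transporter, was measured at 145.4 and 179 CPM in LacZ, at 144.5 in replicate 1 and at 43.2 in replicate 2. Replicate 2 was the lowest of these 4 samples for both genes, and sg1 replicate 1 was also below LacZ, with 41.9 CPM for VLDLR and 86.4 for SLC7A11. Members named after their values were seen were the amino acid synthesis genes ASNS (267 and 248 CPM in LacZ, 314 and 42.5 in sg5), PSAT1 (329 and 360 in LacZ, 359 and 109 in sg5) and PHGDH (490 and 461 in LacZ, 530 and 176 in sg5). ATF4 itself differed less, at 728 and 671 CPM in LacZ, 798 in replicate 1 and 464 in replicate 2. DDIT3, which encodes the transcription factor CHOP, was the 1 member that moved in both replicates, at 29.8 and 29.4 CPM in LacZ and at 18.9 and 8.35 in sg5 (log2 fold change -1.12, adjusted p 0.563; 0.0437 with DESeq2).

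Of 22 integrated stress response genes tested, all 22 lay below both LacZ samples in replicate 2 and 13 did in replicate 1, against 7885 and 6812 of the 18514 genes tested. In replicate 2 only, 10 moved down. The list median was -0.16 in replicate 1 and -1.60 in replicate 2, and 0 genes passed with edgeR, with 3 lower at an unadjusted p under 0.05 (DDIT3, CEBPB and PPP1R15A), against 4.52% of all genes in that direction. Without sg5 replicate 2 the median of the fitted changes was -0.18, against -0.56 with all samples.

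**Figure D3:**
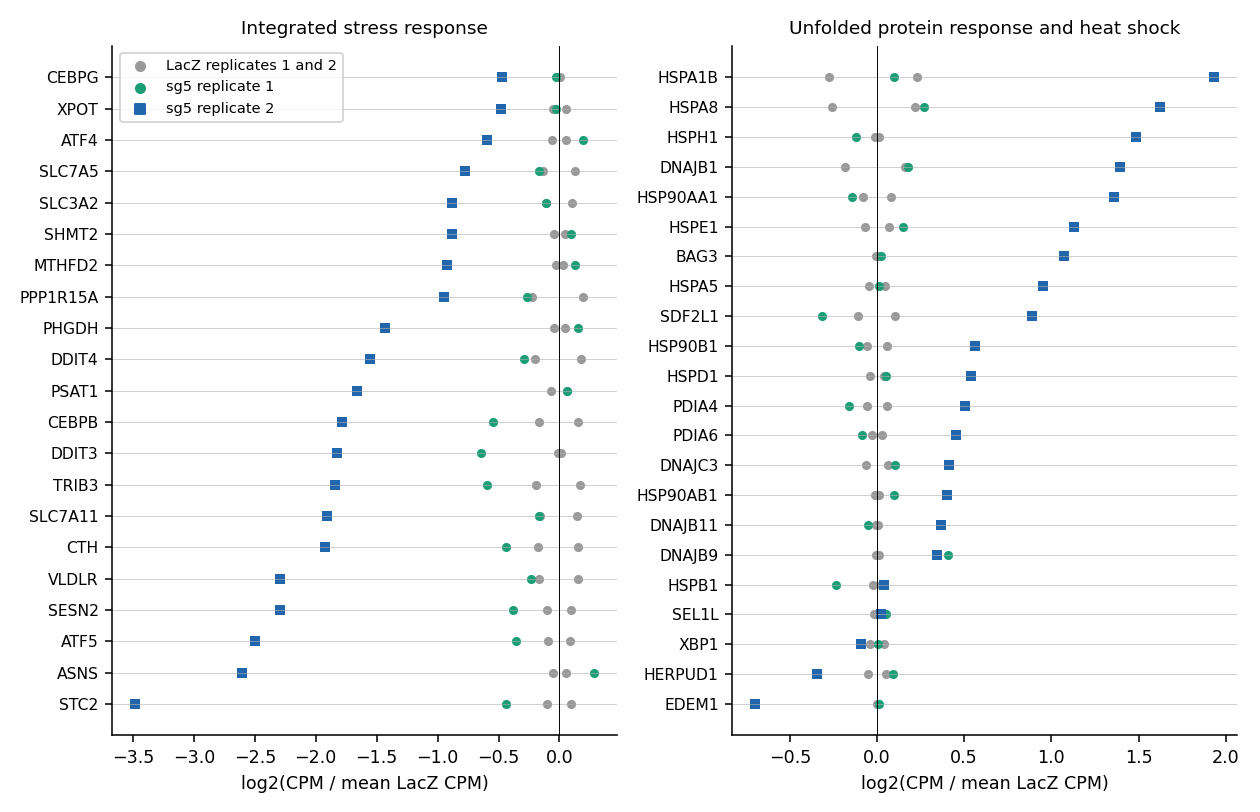
log2 ratio of CPM to the mean LacZ CPM for members of the integrated stress response list (left) and the unfolded protein response and heat shock list (right) averaging 50 counts or more; grey circles are the LacZ samples, green circles sg5 replicate 1 and blue squares sg5 replicate 2. In replicate 2 all the members on the left lie below LacZ and most on the right above it, whereas replicate 1 stays near LacZ in most genes.

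Other genes lower in replicate 2 only were S100P, a calcium-binding protein gene, at 122.6 and 106.9 CPM in LacZ and at 101.3 and 30.03 in sg5, and NLRP12, an inhibitory NOD-like receptor gene, at 9.36 and 15.0 CPM in LacZ and at 12.6 and 3.09 in sg5. BATF3, a leucine zipper transcription factor gene, lay at 11.6 and 11.4 CPM in LacZ and at 10.4 and 3.26 in sg5. CCNA1, a cyclin A gene of germ cells and myeloid leukemia, was higher in replicate 2 only, at 5.85 and 4.62 CPM in LacZ and at 5.50 and 13.9 in sg5. In each of these 4 genes replicate 1 lay at or near the LacZ range.

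The G2/M and S phase lists differed in how the replicates compared. Of 53 G2/M genes tested, 49 lay above both LacZ samples in replicate 2 and 23 in replicate 1, and the list median was 0.36 and 0.01. These are 92.5% and 43.4% of the list, against 37.4% and 36.7% of all genes tested. NUSAP1, a spindle protein gene, lay at 110 and 106 CPM in LacZ and at 121 and 175 in sg5 (adjusted p 0.673). Of 42 S phase genes, 38 lay above both LacZ samples in replicate 2 and 33 in replicate 1, with medians of 0.37 and 0.14, so most of this list was above LacZ in each replicate. GMNN, geminin, lay at 48.4 and 45.3 CPM in LacZ and at 55.4 and 86.1 in sg5 (log2 fold change 0.59, adjusted p 0.608). CDC6, a loader of the replicative helicase, lay at 55 and 52.4 CPM in LacZ and at 66.8 and 79.4 in sg5 (adjusted p 0.642). In the S phase list 30 of 42 genes were higher without overlap (71.4%, against 20.2% of all genes) and 0 lower, whereas 0 passed and 11 had an unadjusted p under 0.05 (2.95% of all genes in that direction).

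Housekeeping lists also differed between the replicates. Nuclear oxidative phosphorylation genes had medians of 0.08 in replicate 1 and 0.27 in replicate 2 over 96 genes. Of the 96, 54 were higher without overlap (56.2%, against 20.2% of all genes) and 4 lower (4.17%, against 21.9%). Of the proteasome genes, 32 of 36 lay above both LacZ samples in replicate 2 and 19 in replicate 1 (88.9% and 52.8%, against 37.4% and 36.7% of all genes). Cholesterol synthesis genes had medians of -0.14 and 0.35 over 22 genes. The cytosolic ribosomal protein genes went the other way, with 73 of 77 above both LacZ samples in replicate 1 and 38 in replicate 2 (94.8% and 49.4%), and medians of 0.19 and 0.06. The 13 oxidative phosphorylation genes of the mitochondrial genome had medians of -0.24 in replicate 1 and 0.17 in replicate 2, and mitochondrial transcripts took 4.46% and 5.46% of the counts in these samples and 5.09% and 5.65% in LacZ. In none of these lists did a gene pass in the test of sg5 against LacZ.

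**Figure D4:**
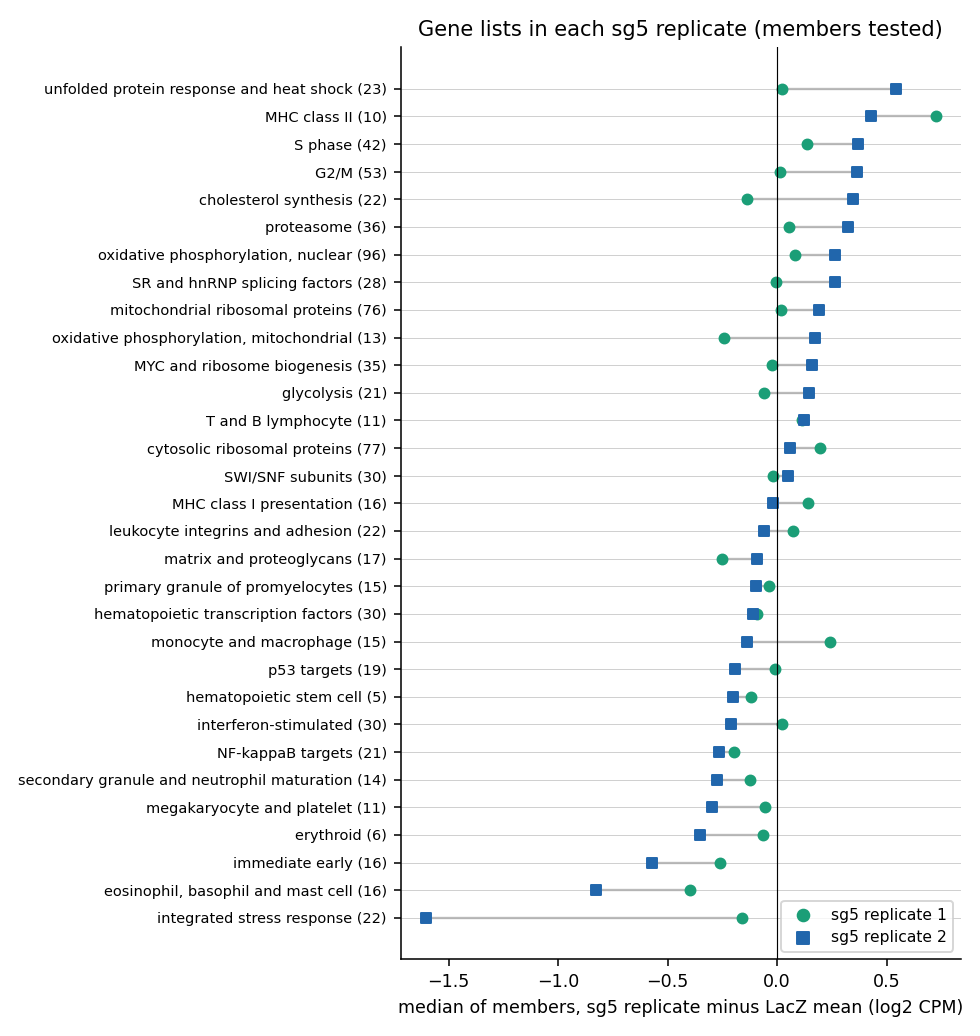
Median over the tested members of each gene list of the difference between an sg5 replicate and the LacZ mean in log2 CPM, with green circles for replicate 1 and blue squares for replicate 2. The integrated stress response list has the widest gap (-0.16 and -1.60), whereas the eosinophil, basophil and mast cell list is below 0 in both (-0.40 and -0.83).

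The primary granule genes had medians of -0.04 and -0.10 over 15 genes. Among them AZU1, azurocidin, lay at 217.4 and 215 CPM in LacZ and at 159.8 and 161.8 in sg5 (log2 fold change -0.43, adjusted p 0.418; 0.0318 with DESeq2), and MPO, the myeloperoxidase gene used as a marker above, at 14820 and 16830 CPM in LacZ and at 13430 and 14510 in sg5 (adjusted p 0.750). Neither p53 targets (medians -0.01 and -0.19 over 19 genes), MHC class I presentation genes (0.14 and -0.02 over 16), interferon-stimulated genes (0.02 and -0.21 over 30), leukocyte integrins and adhesion genes (0.07 and -0.06 over 22), MYC and ribosome biogenesis genes (-0.03 and 0.16 over 35) nor glycolysis genes (-0.06 and 0.14 over 21) held a called gene. Mitochondrial ribosomal proteins (0.02 and 0.19 over 76 genes), splicing factors (-0.01 and 0.26 over 28), erythroid genes (-0.06 and -0.35 over 6) and lymphocyte genes (0.11 and 0.12 over 11) held none either. For 5 hematopoietic stem cell genes the median fitted change (0.22) and the replicate medians (-0.12 and -0.20) differed in sign. Monocyte and macrophage genes had medians of 0.24 and -0.14 over 15 genes. Of these, 4 were higher without overlap (26.7%, near the 20.2% of all genes) and 5 lower (33.3%, against 21.9%).

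Sequence features and library measures that the classes did not use are given beside them. The median GC content of the most abundant transcript was 46.0% for genes higher in replicate 2 only and 55.2% for genes lower in it, against 49.9% over all 13133 genes. For genes moved in both replicates it was 49.5% (higher) and 59.1% (lower). Of 11507 protein-coding genes 461 were lower in replicate 2 only, and of 386 lincRNA genes 41 were. Antisense genes had 51 of 549 in this class, though without stranded counting their reads cannot be told from those of the sense gene. LincRNA transcripts took 0.377% of the counts in sg5 replicate 2 and 0.459% in replicate 1, against 0.482% and 0.476% in LacZ. Retained-intron transcripts took 4.93% and 4.89% in sg5 replicates 2 and 1 and 5.40% and 5.37% in LacZ replicates 2 and 1. The retained-intron share was thus lower than LacZ in both sg5 replicates. The mean fragment length was 173 bases in sg5 replicate 2 and 170 in replicate 1, and 175 and 182 in LacZ. The part of these properties in the classes was not tested.

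The sg1 samples were not used to form the classes, so their 2 replicates were compared with each other for the same genes, without LacZ. Of the 204 genes higher in sg5 replicate 2 only, 190 (93.1%) were higher in sg1 replicate 1 than in sg1 replicate 2, against 51.3% of all 13133 genes. Of the 595 genes lower in sg5 replicate 2 only, 500 (84.0%) were lower in sg1 replicate 1, against 48.6% of all. The median differences between these sg1 replicates were 0.46 and -0.41 on the log2 scale. For genes moved in sg5 replicate 1 only, the medians were -0.11 (higher) and -0.04 (lower). Genes moved in both sg5 replicates were divided the same way to a smaller extent, with 64.7% of the higher ones higher in sg1 replicate 1 (median 0.21) and 67.4% of the lower ones lower (median -0.20). All 22 integrated stress response genes were lower in sg1 replicate 1 than in replicate 2, with a median difference of -0.64, and all 22 were lower in sg5 replicate 2 than in replicate 1, with a median of -1.24. Some other lists did not share this division. All 13 mitochondrial-genome genes were higher in sg5 replicate 2 than in replicate 1 (median 0.41) but lower in sg1 replicate 1 than in replicate 2 (-0.34). For monocyte genes these medians were -0.18 and 0.39, and for secondary granule genes -0.25 and 0.65. ASNS lay at 68.1 and 270 CPM and HSPH1 at 350 and 192 CPM in sg1 replicates 1 and 2. Genes are not independent replicates, and these shares are a description of 4 libraries. The labels give no batch that joins sg1 replicate 1 with sg5 replicate 2, and the origin of this division was not tested.

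**Figure D5:**
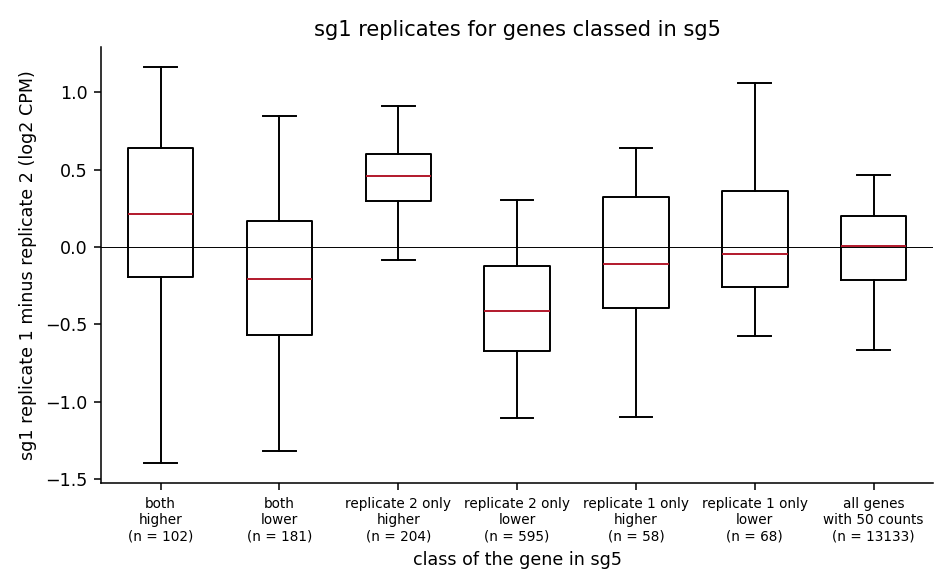
Difference between sg1 replicate 1 and sg1 replicate 2 in log2 CPM for genes grouped by their class in sg5; boxes span the quartiles, red lines are medians and whiskers reach the 5th and 95th percentiles. Genes higher in sg5 replicate 2 only have a median of 0.46 and genes lower in it -0.41, whereas all genes averaging 50 counts or more center near 0.

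Few genes moved in replicate 1 only. Among the higher ones, MPEG1, a perforin-like gene of macrophages, lay at 9.97 and 6.35 CPM in LacZ, at 24.4 in replicate 1 and at 9 in replicate 2. GFI1B, a repressor of the erythroid and megakaryocyte lineages, lay at 1.44 and 1.41 CPM in LacZ and at 4.09 and 1.62 in sg5. Among the lower ones, GGA3, a sorting adaptor gene of the Golgi, lay at 7.10 and 11.3 CPM in LacZ and at 2.79 and 8.51 in sg5. For each of these 3 genes replicate 2 lay within or near the range of LacZ.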

How the data were processed

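RNA-seq libraries of 6 NB4 samples (LacZ, sg1 and sg5, 2 replicates each) were analysed. The authors deposited, per transcript, estimated counts, TPM values and an effective length. The submitters' processing notes name kallisto, DESeq2 and hg19; the transcript set is not given in the sources used here. TPM scaled the estimated counts by effective length. It served for marker levels, for the most abundant transcript of a gene and for the gene lengths in the length offset. Of 196354 transcripts, 181857 (92.6%) matched GENCODE 29 (GRCh38), holding 95.4% to 95.5% of the deposited estimated counts, and were summed to 52992 genes and rounded. Coordinates come from that match.

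All 6 samples entered 1 edgeR quasi-likelihood fit (edgeR 4.0.16, R 4.3.3; TMM, filterByExpr with a minimum count of 10, robust estimation, group only), with the contrast sg5 minus LacZ, Benjamini-Hochberg adjustment over 18514 genes and an FDR of 0.1. The study used DESeq2; it was run as an alternative (1.42.0). CPM uses TMM library sizes. Log2 CPM for the classes had a prior count of 2. Standard errors come from the F statistic. The common biological coefficient of variation was 16.6%. With 2 against 2 samples the smallest two-sided exact permutation p is 0.333, so single genes were tested only within the edgeR fit. The fit was tested on simulated counts. Python 3.11.15 was used for joins and plots.

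The members, gene lists and naming rule were chosen with earlier results of these data known. Named were ARID1A, called genes, the genes of each class ranked by distance from LacZ (up to 12 in each direction for both replicates, 10 for replicate 2 only, 5 for replicate 1 only), and up to 4 members of each list by p. Lists were described by counts and medians, with no set test. Alternatives changed the test, normalization factors, filter, length offset, robust estimation, threshold, replicate block and samples. Keeping unmatched transcripts as features was added after seeing the data.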

Additional observations from a re-analysis of the deposited data

Results flagged for a closer look

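TEN1 differed between the guides in the same fit. The log2 difference of sg5 minus sg1 was -3.33 (adjusted p 0.0506 by the edgeR quasi-likelihood test), with 118 and 62 counts in sg5, 914 and 870 in sg1 and 692 and 857 in LacZ. TEN1, TEN1-CDK3 and CDK3 summed to 24.4 and 21.1 CPM in sg5, to 35.7 and 42.2 in sg1 and to 32.8 and 41.9 in LacZ, and how reads were divided among these overlapping genes was not tested.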

How the results depend on the processing

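The 18 genes called became 201 with DESeq2, 632 without a low-count filter, 29 with only LacZ and sg5 in the fit and 1 with unmatched transcripts kept, and they stayed within 1.5 times with RLE or upper quartile factors, a mean of at least 50 counts, the length offset, no robust estimation or an FDR of 0.05. With the replicate block 1 gene passed (RIPOR2), as did 1 when that block was joined with the length offset. Differences between replicates 1 and 2 had correlations of 0.0719 (LacZ and sg1), 0.012 (LacZ and sg5) and -0.206 (sg1 and sg5). The labels do not say what replicates of the same number share, and a shared preparation was not tested. Leaving out 1 library gave 0 to 78 called genes. Genes moved in both replicates (283) became 80 at 2-fold and 910 without a count minimum, those of replicate 2 only (799) became 127 and 1428, and those of replicate 1 only (126) became 19 and 546. List medians moved with the length offset to 0.0993 (erythroid), 0.16 (lymphocyte) and -0.47 (stem cell), with block and length offset to 0.355 (MHC class II), 0.147 (lymphocyte) and -0.48 (stem cell), with upper quartile factors to -0.135 (hematopoietic factors), and for genes averaging 50 counts or more to 0.0839 (lymphocyte). The causes were not tested.

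Leaving out 1 library, the medians that moved ranged from -0.83 to -0.44 (eosinophil, basophil and mast cell), -0.31 to -0.0104 (megakaryocyte), -0.35 to 0.0867 (erythroid), -0.31 to -0.0699 (secondary granule), 0.32 to 0.72 (MHC class II), -0.20 to 0.0636 (interferon), -0.56 to -0.27 (immediate early), 0.13 to 0.39 (S phase), 0.006 to 0.38 (G2/M), -0.0337 to 0.18 (MYC), -0.0157 to 0.28 (splicing), -0.068 to 0.16 (glycolysis), -1.59 to -0.18 (integrated stress response), 0.0043 to 0.56 (heat shock), -0.20 to 0.0274 (p53), -0.0271 to 0.0726 (SWI/SNF), -0.10 to -0.0369 (hematopoietic factors), -0.0496 to 0.0635 (adhesion), -0.28 to -0.10 (matrix), -0.0376 to 0.14 (lymphocyte) and -0.23 to 0.27 (stem cell). Other lists whose medians stayed within 1 SD between replicates still ranged from -0.36 to -0.11 (NF-kappaB), 0.045 to 0.34 (proteasome), 0.075 to 0.28 (nuclear oxidative phosphorylation), -0.25 to 0.19 (mitochondrial), -0.15 to 0.36 (cholesterol), -0.12 to 0.24 (monocyte), 0.0111 to 0.21 (mitochondrial ribosomal), 0.0767 to 0.19 (cytosolic ribosomal), -0.0827 to 0.0361 (primary granule) and -0.0012 to 0.13 (MHC class I). A gene under the threshold is not shown to be unchanged.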
